A study of Caenorhabditis elegans with 9 samples.

Results

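The data described here are the transcriptomes of whole Caenorhabditis elegans of the egl-44 mutant on E. coli OP50, set against those of wild type (WT) animals on the same bacteria. They were taken by genotype and food: of the 9 libraries of the series, the 3 libraries labelled egl-44(mt2247) on OP50 and the 3 libraries of WT strain N2 on OP50 were compared, which is 6 libraries in all, and the remaining 3 come from N2 exposed to Pseudomonas aeruginosa PA14 and entered only an alternative fit. Per the labels, worms of both genotypes were grown on nematode growth medium with OP50 at 20°C, and young adults were kept on OP50 at 25°C for 24 h and then harvested as adults. The study asked how EGL-44 and its co-activator YAP-1 act in the response to infection. The allele is written mt2247 or MT2247 in the labels, the sources do not describe its lesion, and the mutation is carried by every cell of the animal. Nothing in the labels says that the replicates of a genotype came from separate cultures, so the p-values measure the spread between these libraries, which may be technical.

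EGL-44 is the worm member of the TEAD family, DNA-binding transcription factors that work with the co-activator YAP. In the Hippo pathway, kinases of the Mst and Lats classes restrain YAP, and when they are silent YAP enters the nucleus and joins TEAD. In C. elegans, egl-44 is also known for its part in neuronal fate: together with the zinc finger protein EGL-46 it keeps touch receptor genes off in the FLP neurons, and egl-44 mutants lay eggs poorly.

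Levels are in FPKM, read counts scaled by transcript length and by library depth, which allow levels of different genes to be set side by side. The egl-44 libraries held 13600000 to 17800000 reads in genes and the WT libraries 14900000 to 17300000 reads, as recovered from the FPKM values. Of 20541 genes in the files, 15488 averaged 0.5 FPKM or more across these libraries and were tested. Over those genes the log2 levels of libraries correlated at r = 0.928 to 0.971 within egl-44, at 0.933 to 0.983 within WT and at 0.612 to 0.801 between the genotypes. These are descriptions across genes, which are not independent replicates. The egl-44 library nearest to WT was replicate 3, with r between 0.725 and 0.801.

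The stage label did not match the markers in both groups. All libraries are labelled as adult worms, yet the egl-44 libraries held almost no RNA of the adult cuticle collagen col-19, with 3.64, 4.47 and 5.54 FPKM in egl-44, against 1475, 1855 and 2221 FPKM in WT. The summed level of the 6 vitellogenins, the yolk proteins made by the adult intestine, was 9.55 to 25.2 FPKM in egl-44 and 1893 to 5999 FPKM in WT. The 27 genes of a moulting list summed to 1842 to 2480 FPKM in egl-44 and 239 to 951 FPKM in WT. No library of one genotype reached the other in col-19, the vitellogenin sum or the moulting sum. Not every adult marker went this way. Of 5 adult cuticle collagens, col-19 among them, 3 fell and none rose. bli-2, an uncalled member, had 523 FPKM in egl-44 replicate 3, above every WT library. The study's methods describe RNA sequencing of the infection experiment alone, so it is not known whether the libraries of both genotypes were prepared together. Genotype, developmental stage and time of preparation therefore cannot be told apart in any comparison that follows. In whole worms, fewer cells of a type and less RNA per cell cannot be told apart either.

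A large part of the transcriptome differed between the genotypes. A gene was called when its adjusted p was under 0.05 in limma's test, with Benjamini-Hochberg adjustment over all 15488 genes, and its fold change, on the log2(FPKM + 0.5) scale, was over 2. By this rule 2577 genes rose in egl-44, which is 16.6% of the genes tested, and 3572 fell, which is 23.1%, or 39.7% in either direction. With p left unadjusted and the same fold, 2780 rose and 3625 fell, or 17.9% and 23.4% of the genes tested. The largest decreases were deeper than the largest increases: 772 called genes fell by over 16-fold and 53 rose by as much. The values of the genotypes did not overlap in 2557 of the genes that rose and 3546 of those that fell. With 3 libraries per genotype this follows largely from the call, so it adds no support to called genes here or below. Among all tested genes, called or not, every egl-44 library lay above WT in 34.1% and below WT in 35.6%. The balance of the calls depended on scaling: 41.9% of calls were increases with FPKM as deposited, 35.1% after median-of-ratios scaling and 58.5% after quantile normalization. Over the 15488 genes the median change was 0.12 (log2) as deposited, 0.01 once median-of-ratios factors were applied and 0.31 in the quantile-normalized values, and group medians are best read against these values. Leaving out egl-44 replicate 3, the library nearest to WT, gave 2670 increases and 3880 decreases.

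**Figure D1:**
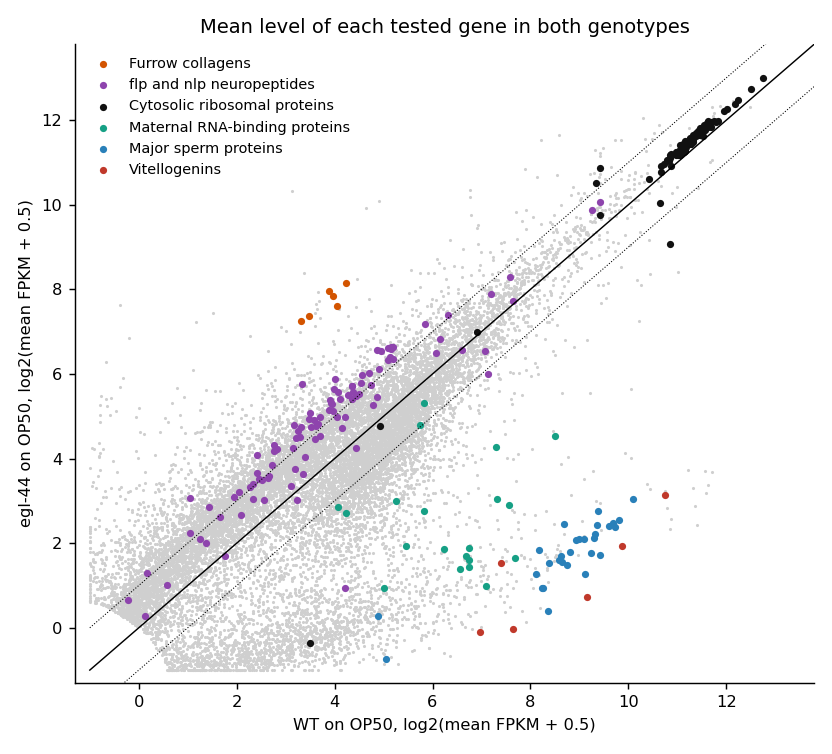
Mean level of each of the 15488 tested genes, as log2(mean FPKM + 0.5), in egl-44 (vertical axis) and WT (horizontal axis), both on OP50; each point is a gene, the solid line marks equal levels and the dotted lines a 2-fold difference. Vitellogenins, major sperm proteins and maternal RNA-binding proteins lie far below the diagonal, furrow collagens far above it, and most ribosomal protein genes close to it.

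The mutated gene, egl-44, lies on chromosome II from 5928802 to 5940830 (WBcel235). It was not lost from the mutant transcriptome: it had 32.5, 37.8 and 28.2 FPKM in egl-44, against 16.1, 21.5 and 16 FPKM in WT. The groups did not overlap and the log2 fold change was 0.86 (SE 0.197, adjusted p = 0.0103), below the 2-fold limit, except after quantile normalization or without WT replicate 2. An RNA level does not test an allele whose lesion is unknown, so these values do not check the genotype label. yap-1, the co-activator, had 34.0, 32.1 and 30.9 FPKM in egl-44, against 27, 28.2 and 21 FPKM in WT, a log2 fold change of 0.35 (adjusted p = 0.112). Of the 8 genes of this pathway list, 3 rose, none fell, and the median log2 fold change was 0.71. cst-1, an Mst-class kinase, had 8.44, 11.4 and 8.81 FPKM in egl-44, against 3.37, 4.65 and 3.71 FPKM in WT (log2 fold change 1.19, SE 0.237, adjusted p = 0.00641). Its near copy cst-2 stood at the 2-fold limit, lost its call without any single library other than egl-44 replicate 3 and under median-of-ratios scaling (log2 fold change 0.89), and shares sequence with cst-1, so the split of reads between them is uncertain. The partner gene egl-46 was low everywhere, with 2.67, 4.54 and 1.78 FPKM in egl-44 and 0.968, 0.618 and 0.731 FPKM in WT. It rose by 1.39 on the log2 scale (SE 0.344, adjusted p = 0.0137), a call that was lost without WT replicate 2. The Lats kinase gene wts-1, the scaffold gene sav-1 and the merlin homolog nfm-1 did not pass, with log2 fold changes of 0.54, 0.25 and 0.56.

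**Figure D2:**
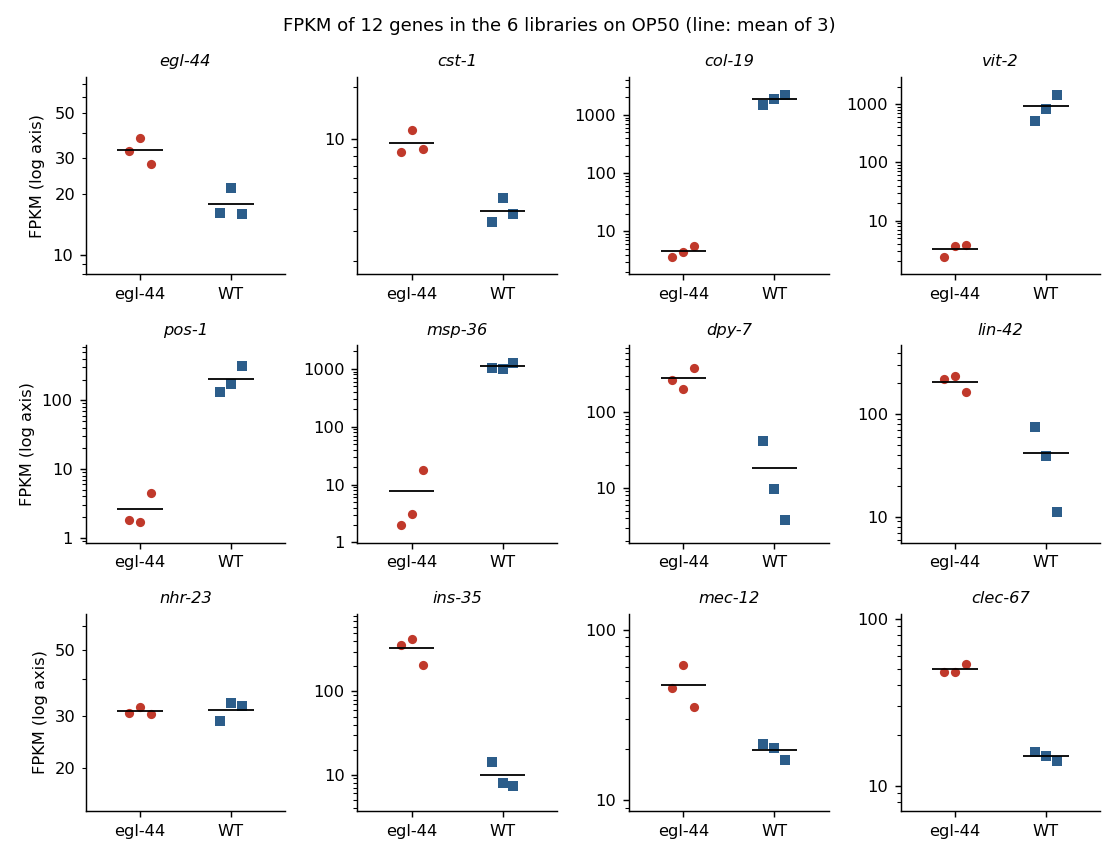
FPKM (log axes, a different range in each panel) of 12 genes in the 3 egl-44 libraries (red circles, left) and the 3 WT libraries (blue squares, right), with a line at each mean. nhr-23 overlaps between the genotypes and the other 11 genes do not, with col-19, vit-2, pos-1 and msp-36 low in egl-44 and dpy-7, lin-42 and ins-35 high.

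Genes of yolk and egg production fell in egl-44. Vitellogenins are taken up by oocytes as yolk, and all 6 fell, with a median log2 fold change of -7.53. vit-2 had 2.40, 3.66 and 3.88 FPKM in egl-44, against 509, 830 and 1448 FPKM in WT, a log2 fold change of -7.82 (SE 0.382, adjusted p = 0.00012). vit-6 had 4.61, 6.35 and 13.9 FPKM in egl-44, against 988, 1636 and 2536 FPKM in WT. In both genes every WT value lay far above every egl-44 value, and WT replicate 3 was the highest library. Of 17 eggshell and yolk receptor genes, 15 fell and none rose, with a median of -4.56. cpg-2, a chondroitin proteoglycan of the eggshell, had 11.6, 8.95 and 16.9 FPKM in egl-44, against 446, 502 and 920 FPKM in WT (log2 fold change -5.55, SE 0.334, adjusted p = 0.000175). perm-4, needed for the eggshell permeability barrier, had 0.736, 1.6 and 7.06 FPKM in egl-44, against 215.1, 349 and 545 FPKM in WT. The near-identical vitellogenin copies share reads, and their separate values are uncertain.

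RNAs that oocytes store for the embryo followed the same direction. Of 20 genes for maternal RNA-binding proteins, 18 fell and none rose, with a median log2 fold change of -4.27. pos-1, a zinc finger regulator of embryonic translation, had 1.80, 1.70 and 4.42 FPKM in egl-44, against 131, 174 and 314 FPKM in WT (log2 fold change -6.05, SE 0.427, adjusted p = 0.000218). gld-1, a translational repressor of the germline, had 17.4, 7.82 and 43.3 FPKM in egl-44, against 304, 331 and 443 FPKM in WT. mex-3 fell less, with 17.1, 22.6 and 16.9 FPKM in egl-44, against 113, 127 and 227 FPKM in WT (log2 fold change -2.95). The genotypes did not overlap in these 3 genes, and in 2 of them the highest egl-44 value was that of replicate 3. Of 51 early zygotic and embryonic fate genes, 9 passed the filter on low values, of which 3 rose and 3 fell, with 1 decrease without egl-44 replicate 1 or WT replicate 3.

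Sperm genes were nearly silent in the mutant libraries. All 29 tested genes for major sperm protein, the cytoskeletal protein that moves nematode sperm, fell, with a median log2 fold change of -7.62. Their sum was 22.3, 33.8 and 230 FPKM in egl-44, against 13119, 13723 and 17474 FPKM in WT. msp-36 had 1.99, 3.08 and 18 FPKM in egl-44, against 1028, 994 and 1273 FPKM in WT (log2 fold change -7.64, SE 0.696, adjusted p = 0.000392). In each of these measures egl-44 replicate 3 was several times above the other egl-44 libraries and still far below WT. Of 57 further spermatogenesis genes, 52 fell and none rose, with a median of -3.96. nspd-10, of a small sperm-enriched peptide family, had 0.676, 0.442 and 1.51 FPKM in egl-44, against 234.6, 277 and 365 FPKM in WT (log2 fold change -7.79, SE 0.322, adjusted p = 6.68e-05). The msp and nspd genes are families of near-identical copies, so the group direction is firmer than the value of any one copy.

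Genes of the germline nucleus and cytoplasm fell by less. All 19 genes of the synaptonemal complex and meiotic axis, which pair and hold homologous chromosomes, fell, with a median of -2.46. him-3, an axis protein, had 9.40, 2.84 and 33.8 FPKM in egl-44, against 74.4, 81 and 87.1 FPKM in WT (log2 fold change -2.96, SE 0.757, adjusted p = 0.0155). Of 21 genes for P granules, the RNA-rich bodies of germ cells, and for germline small RNA, 20 fell, with a median of -2.56. pgl-1, a P granule scaffold, had 36.3, 18.8 and 71.8 FPKM in egl-44, against 191, 191 and 201 FPKM in WT (log2 fold change -2.39, SE 0.436, adjusted p = 0.00461). hrde-1, the nuclear Argonaute, had 10.5, 4.69 and 19.8 FPKM in egl-44, against 100, 109 and 150 FPKM in WT (log2 fold change -3.49). In all 3 genes replicate 2 was the lowest and replicate 3 the highest egl-44 library. The summed meiotic list was also highest in replicate 3, with 102, 54.4 and 248 FPKM in egl-44, against 572, 596 and 691 FPKM in WT. Of 30 tested DNA replication genes, 26 fell and none rose, with a median of -1.45, and 16 fell with quantile normalization. mcm-2, a helicase subunit, had 28.5, 23.1 and 31.1 FPKM in egl-44, against 99.7, 99.9 and 148 FPKM in WT (log2 fold change -2.04, SE 0.21, adjusted p = 0.000594). The polymerase clamp gene pcn-1 fell by 1.46 on the log2 scale.

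**Figure D3:**
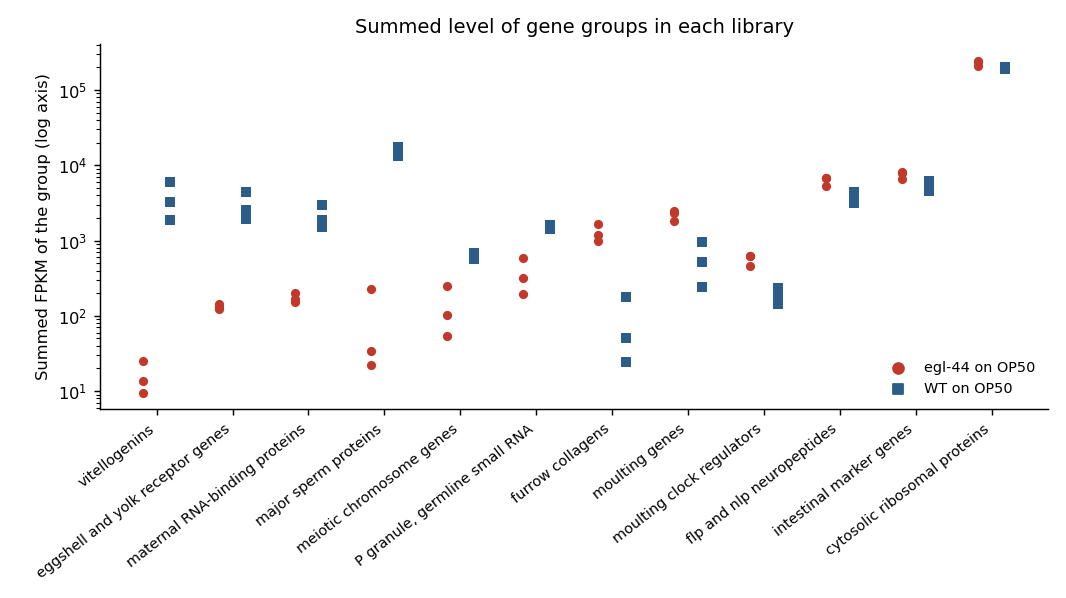
Summed FPKM (log axis) of 12 gene groups in each library, egl-44 as red circles on the left of each pair and WT as blue squares on the right. Germline, egg and yolk groups are lower in every egl-44 library than in any WT library, moulting groups are higher in every egl-44 library, and the ribosomal protein sums differ little, at 207609 to 246344 in egl-44 and 190480 to 199880 in WT.

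Growth machinery that all cells use changed little beside these groups. Of 79 cytosolic ribosomal protein genes, 2 rose and 2 fell, with a median of 0.23. A pair of paralogs moved apart: rpl-11.2 had 1671, 2288 and 1630 FPKM in egl-44, against 752, 700 and 614 FPKM in WT (log2 fold change 1.42), and rpl-11.1 had 411, 247 and 949 FPKM in egl-44, against 1874, 1841 and 1827 FPKM in WT (log2 fold change -2.01). Neither of these called genes overlapped between the genotypes. None of 69 mitochondrial ribosomal protein genes and none of 25 respiratory chain and ATP synthase genes passed limma's rule in either direction, also with p unadjusted. The median of the mitochondrial ribosomal genes was -0.08, and its sign turned with quantile normalization, to 0.10, and without egl-44 replicate 1, to 0.03. Of 33 proteasome genes 1 fell, with a median of -0.33. Of 21 genes for the vacuolar proton ATPase 2 fell and none rose by the rule, though the median was 0.42. In 17 of these 21 genes every egl-44 library lay above every WT library, against 34.1% of all tested genes, and in 2 the reverse held. The same rise was seen in 47 of the 79 cytosolic ribosomal protein genes, with 3 the other way. It was also seen in 15 of the 25 respiratory chain and ATP synthase genes, with none the other way. Histone genes were mixed, with 15 increases and 5 decreases among 41, and their repeated copies share reads.

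The cuticle showed the widest divergence within a single family. The worm's collagen coat is rebuilt at every moult, with some collagens made at all stages and others only by larvae or only by adults. Of 139 tested col- collagens, 33 rose and 30 fell, with a median of 0.74; the count that rose was 21 without egl-44 replicate 1, and the median was 0.08 without WT replicate 3. The adult collagen col-19 (chromosome X, 421707 to 422691), whose values are given above, fell by 8.52 on the log2 scale (SE 0.209, adjusted p = 1.97e-05). The largest decrease of all called genes was that of col-81, with 3.67, 4.16 and 6.74 FPKM in egl-44, against 2384, 2754 and 3027 FPKM in WT (log2 fold change -9.02, SE 0.228, adjusted p = 1.97e-05). Of the 10 largest decreases 8 were col- genes and 2 were msp genes. The adult collagens col-7 and col-62 had at most 1.47 FPKM in any egl-44 library and at least 114 FPKM in any WT library.

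Other collagens were high in the mutant alone. The largest increase was that of col-36, with 343, 17.3 and 232 FPKM in egl-44, against 0.270, 0.470 and 0.0729 FPKM in WT (log2 fold change 7.22, SE 1.05, adjusted p = 0.00204). Replicate 2 was more than 10-fold below the other egl-44 libraries for this gene, and limma voom on recovered reads did not call it (adjusted p = 0.0598). col-41 had 2190, 1205 and 440 FPKM in egl-44, against 8.21, 8.31 and 8.23 FPKM in WT (log2 fold change 6.91, SE 0.528, adjusted p = 0.000262). col-176 had 1087, 879 and 946 FPKM in egl-44, against 31, 34.4 and 7.72 FPKM in WT. These genes were picked among called genes without overlap between the genotypes, so their lack of overlap follows from the choice. Each held over 10 FPKM in every egl-44 library. Of the 10 largest increases 7 were col- genes. The others were R57.2, srw-85 and C08E8.4, of which srw-85 belongs to a chemoreceptor family. R57.2 had 49.3, 30.3 and 53.1 FPKM in egl-44, against 0.0761, 0.177 and 0 FPKM in WT.

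Furrow collagens rose as a whole group and body shape collagens in part. All 6 furrow collagens, which form the circumferential grooves of the cuticle, rose, with a median log2 fold change of 4.32. dpy-7 (chromosome X, 7536467 to 7537792) had 262, 203 and 380 FPKM in egl-44, against 41.6, 9.60 and 3.79 FPKM in WT (log2 fold change 4.48, SE 0.772, adjusted p = 0.00373). dpy-9 had 216, 189 and 339 FPKM in egl-44, against 27.8, 9.85 and 5.27 FPKM in WT. WT replicate 1 was the highest and WT replicate 3 the lowest WT library in both genes. Of 13 body shape collagens outside this group 5 rose, with a median of 2.34, and the count ranged between 0 without egl-44 replicate 1 and 9 without WT replicate 1, while 2 of these genes fell without egl-44 replicate 3. rol-6 had 569, 343 and 355 FPKM in egl-44, against 142, 50.9 and 9.33 FPKM in WT (log2 fold change 3.31, adjusted p = 0.0182), a call that was lost without egl-44 replicate 1. bli-2, a collagen of the adult cuticle struts, did not separate the genotypes: it had 8.56, 3.55 and 523 FPKM in egl-44, against 213, 49.6 and 13.1 FPKM in WT.

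Moulting genes outside the collagens went the same way. Of 27 such genes 19 rose and none fell, with a median of 1.96. fbn-1, a fibrillin-like matrix protein, had 34.0, 28.1 and 30.4 FPKM in egl-44, against 1.20, 1.18 and 0.446 FPKM in WT (log2 fold change 4.49, SE 0.296, adjusted p = 0.00019). noah-1, an apical matrix protein of the epidermis, had 161, 142 and 178 FPKM in egl-44, against 26.7, 7.11 and 3.5 FPKM in WT (log2 fold change 4.09). The astacin protease nas-37, which helps to shed the old cuticle, had 65.9, 32 and 55.3 FPKM in egl-44, against 21.6, 8.56 and 9.67 FPKM in WT (log2 fold change 1.96). None of these 3 called genes overlapped between the genotypes. Of 30 tested cuticlins, proteins of the insoluble cuticle, 16 rose and none fell, and 9 rose without WT replicate 3 and 10 without WT replicate 2. Hedgehog-related ligands rose in 20 of 49 genes and fell in 1. That count was 9 without egl-44 replicate 1, 10 without egl-44 replicate 3 and 10 without WT replicate 2. wrt-10 had 208, 208 and 317 FPKM in egl-44, against 23.8, 8.58 and 4.26 FPKM in WT (log2 fold change 4.56, SE 0.56, adjusted p = 0.00105). The most abundant ligand genes, grl-16, grd-5, grd-14 and grl-4, were not called, with log2 fold changes of 0.96, 0.25, -0.20 and 0.49. Of 25 patched-related receptor genes 10 rose and 2 fell, with 6 increases without egl-44 replicate 1. ptc-1, needed for germline cytokinesis, was among those that fell, with 35.7, 40.9 and 32 FPKM in egl-44, against 71.2, 75.9 and 112 FPKM in WT (log2 fold change -1.22, adjusted p = 0.00373). Of 30 astacin proteases 8 rose and 4 fell, with 5 increases without egl-44 replicate 2, and nas-20 had at most 0.0932 FPKM in egl-44 and at least 21.2 FPKM in WT.

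Regulators of larval timing and of the moulting cycle rose in 10 of 15 genes and fell in none, with a median of 2.18. lin-42, the worm homolog of Period, which paces moulting, averaged 206 ± 37.7 FPKM in egl-44, against 41.8 ± 31.9 FPKM in WT (SD, n = 3 each), with at least 163 FPKM in every egl-44 library and at most 74.8 FPKM in every WT library (log2 fold change 2.64, SE 0.627, adjusted p = 0.0119). myrf-1, a transcription factor that sets the pace of moults and lin-4 expression, had 58.0, 64.9 and 55.0 FPKM in egl-44, against 11.7, 7.11 and 4.80 FPKM in WT (log2 fold change 2.92). The nuclear receptor gene nhr-25 had 15.2, 11.5 and 5.12 FPKM in egl-44, against 1.52, 1.27 and 0.283 FPKM in WT. All 3 were called genes, and each was higher in every egl-44 library than in any WT library. nhr-23, another nuclear receptor required for moulting, did not differ by this test, with 30.7, 32 and 30.5 FPKM in egl-44, against 28.8, 33 and 32.4 FPKM in WT (log2 fold change -0.01, SE 0.141). Under quantile normalization its value was 0.30. lin-28, a heterochronic gene picked for mention after its values were seen, had 16.2, 15.7 and 19.1 FPKM in egl-44, against 30.8, 34.1 and 35.8 FPKM in WT. Its log2 fold change of -0.97 (adjusted p = 0.00335) lay just inside the 2-fold limit.

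Neuronal genes were higher in egl-44 across several groups. Of 15 tested touch receptor neuron genes 10 rose and 1 fell, with a median of 1.16. mec-12, the touch neuron alpha-tubulin, had 45.6, 62 and 35.3 FPKM in egl-44, against 21.3, 20.2 and 17.3 FPKM in WT (log2 fold change 1.23, SE 0.232, adjusted p = 0.00532). mec-17, its acetyltransferase, had 37.4, 33 and 30.2 FPKM in egl-44, against 17.2, 17.5 and 11.4 FPKM in WT (log2 fold change 1.12), and lost its call without WT replicate 3. The groups did not overlap in either gene. The homeobox selector gene mec-3 had 1.38, 2.06 and 2.58 FPKM in egl-44, against 1.42, 0.647 and 0.492 FPKM in WT. The touch channel gene mec-4 had 1.37, 1.035 and 0.589 FPKM in egl-44, against 0.470, 0.172 and 0.401 FPKM in WT. Both had adjusted p-values above 0.05 in limma's test, 0.0559 for mec-3 and 0.0524 for mec-4, and both were called after quantile normalization. Both were picked for mention with their values known. The F-box gene mec-15 fell, with 10.8, 11.6 and 16.9 FPKM in egl-44, against 33.3, 36.7 and 50.2 FPKM in WT (log2 fold change -1.58, adjusted p = 0.00257).

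Synaptic, neuropeptide and egg-laying neuron genes also rose more often than they fell. Of 22 genes of the synaptic machinery 12 rose and none fell, with a median of 1.15. cpx-1, complexin, had 40.5, 54.6 and 41.6 FPKM in egl-44, against 13.2, 16.9 and 15.9 FPKM in WT (log2 fold change 1.54, SE 0.19, adjusted p = 0.00107). The prohormone convertase gene egl-3 had 112, 127 and 78.2 FPKM in egl-44, against 44.5, 43.3 and 46.9 FPKM in WT (log2 fold change 1.20). snb-1, synaptobrevin, was not called, with 195, 212 and 190 FPKM in egl-44, against 163, 161 and 194 FPKM in WT. Of 99 neuropeptide genes of the flp and nlp classes 57 rose and 1 fell, with a median of 1.13. These were taken by name and not limited to genes of neurons. The most abundant of them, nlp-24, nlp-33, nlp-40 and nlp-29, were not called, with log2 fold changes of 0.63, 0.70, 0.70 and 0.15. flp-8 had 56.2, 70.9 and 33.6 FPKM in egl-44, against 11.06, 8.27 and 9.31 FPKM in WT (log2 fold change 2.37, SE 0.294, adjusted p = 0.00109). The gene that fell was nlp-4, with 0.526, 0.825 and 2.93 FPKM in egl-44, against 17.8, 16.1 and 20.0 FPKM in WT. Among 10 serotonin and egg-laying neuron genes 3 rose, or 1 without egl-44 replicate 1. egl-43 was one of these, with 8.46, 11.6 and 5.08 FPKM in egl-44, against 2.12, 2.22 and 2.29 FPKM in WT (log2 fold change 1.64, adjusted p = 0.0061).

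Insulin-like peptides, which act through the DAF-2 receptor, rose in 17 of 34 tested genes and fell in 4, with a median of 1.01. Leaving out either of egl-44 replicates 1 and 2 or WT replicates 2 and 3 gave 2 decreases. ins-35 had 364, 432 and 207 FPKM in egl-44, against 14.3, 7.88 and 7.32 FPKM in WT (log2 fold change 5.01, SE 0.353, adjusted p = 0.000218). ins-33 had 41.6, 51.8 and 62.1 FPKM in egl-44, against 9.02, 7.50 and 1.80 FPKM in WT (log2 fold change 3.21). ins-37 moved the other way, with 0.219, 0.286 and 2.57 FPKM in egl-44, against 28.9, 27 and 23.3 FPKM in WT (log2 fold change -4.48). No value of one genotype reached the other in these 3 genes, which were picked among called genes.

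**Figure D4:**
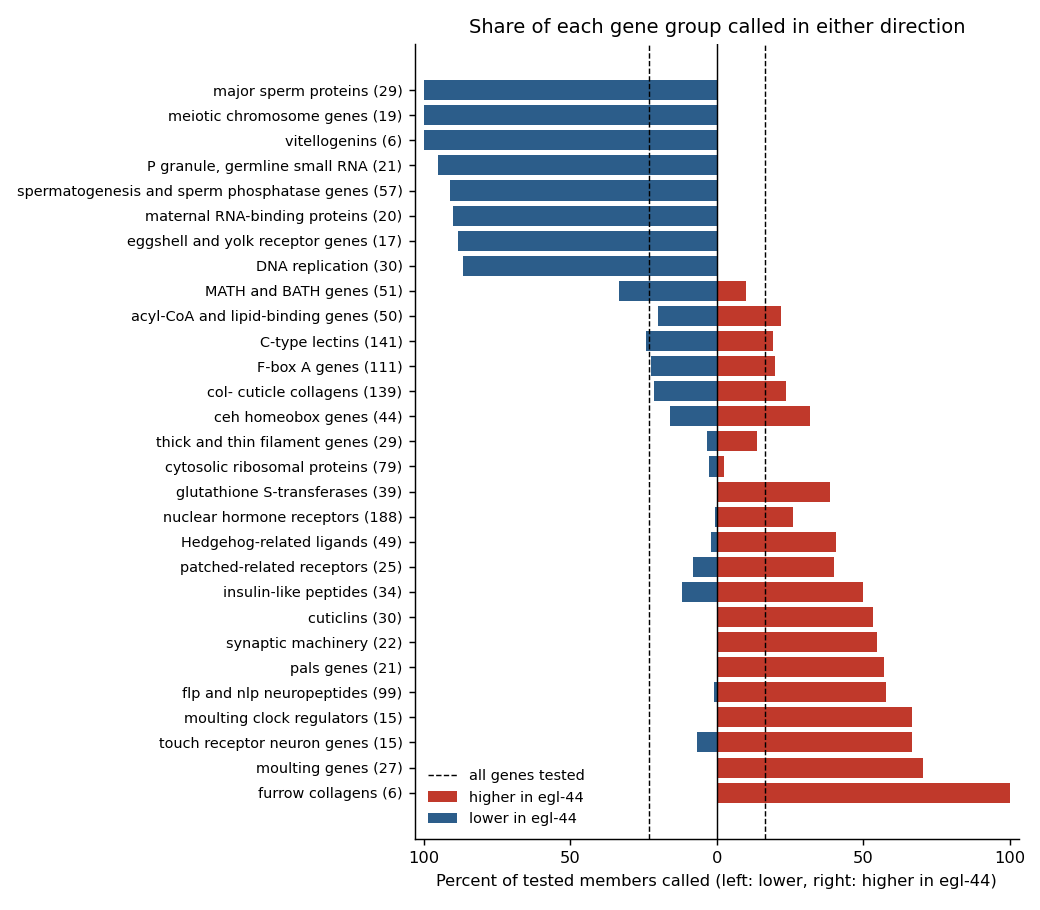
Percent of the tested members of 29 gene groups called higher (right, red) or lower (left, blue) in egl-44 than in WT, with the number tested in parentheses; dashed lines mark the 16.6% and 23.1% of all genes called. Germline groups reach up to 100 percent on the lower side and furrow collagens reach it on the higher side, while C-type lectins, F-box A genes and col- collagens lie near the dashed lines on both sides.

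Muscle, pharyngeal and intestinal lists held fewer calls. Of 29 thick and thin filament genes 4 rose and 1 fell, with a median of 0.57, and 1 rose without WT replicate 1 and 2 without egl-44 replicate 2. In 24 of the 29 every egl-44 library lay above every WT library, against 34.1% of all tested genes. In 1 the reverse held. tni-1, a troponin I of body wall muscle, had 363, 379 and 221 FPKM in egl-44, against 150, 121 and 57.9 FPKM in WT (log2 fold change 1.61, adjusted p = 0.0121). act-2 fell by 1.38 on the log2 scale, with 383, 220 and 511 FPKM in egl-44, against 1130, 811 and 838 FPKM in WT, but actin genes share long stretches of sequence. Of 25 pharyngeal genes 6 rose and none fell, with a median of 0.98. pha-4, the organ identity factor of the pharynx, had 16.2, 25.9 and 10.2 FPKM in egl-44, against 4.07, 5.24 and 4.12 FPKM in WT (log2 fold change 1.76, adjusted p = 0.00635). Of 14 intestinal marker genes 2 rose, or 14.3%, near the 16.6% of all genes tested, and none fell, with a median of 0.45. The intestinal GATA factor gene elt-2 had 31.4, 24.9 and 29.2 FPKM in egl-44, against 14.1, 13.6 and 7.76 FPKM in WT (log2 fold change 1.27, adjusted p = 0.00723). The gut esterase gene ges-1 rose by 1.15 on the same scale, and that call was lost without egl-44 replicate 3. The intestinal actin act-5 and the proton pump subunit vha-6 were not called, with log2 fold changes of 0.42 and 0.15. None of 3 coelomocyte markers was called, with or without adjustment. Of 6 excretory system markers 1 rose, or 16.7%, about the share of all genes.

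Metabolic and detoxification genes rose more often than they fell, where 16.6% of all genes tested rose and 23.1% fell. Of 39 glutathione S-transferase genes 15 rose, or 38.5%, and none fell, with a median of 0.88. gst-10 had 495, 357 and 573 FPKM in egl-44, against 168, 99.0 and 114 FPKM in WT (log2 fold change 1.91, SE 0.253, adjusted p = 0.0014). Of 53 cytochrome P450 genes 17 rose and 4 fell, or 32.1% and 7.55%. cyp-13A2 had 24.5, 36 and 20.7 FPKM in egl-44, against 2.76, 2.91 and 0.980 FPKM in WT (log2 fold change 3.40). Of 60 UDP-glucuronosyltransferase genes 13 rose, or 21.7%, and none fell, and 8 rose without WT replicate 2 or WT replicate 3. ugt-57 had 13.2, 21 and 18.9 FPKM in egl-44, against 0.665, 0.351 and 0.359 FPKM in WT (log2 fold change 4.24, SE 0.283, adjusted p = 0.000195). These 3 called genes did not overlap between the genotypes. Of 11 superoxide dismutase, catalase and peroxiredoxin genes 3 rose and 1 fell, or 27.3% and 9.09%. sod-3, a mitochondrial superoxide dismutase, had 97.5, 14.9 and 36.9 FPKM in egl-44, against 7.08, 5.8 and 4.42 FPKM in WT (log2 fold change 2.64). Of 11 genes of iron and metal handling 2 rose, or 18.2%, near the share of all genes, and none fell. Among them was the metallothionein gene mtl-1, with 405, 119 and 384 FPKM in egl-44, against 28.4, 26.5 and 9.32 FPKM in WT (log2 fold change 3.75). The ferritin gene ftn-1 rose too (log2 fold change 3.53), a call that was lost without any of egl-44 replicates 1 and 3 and WT replicates 1 and 2.

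Lipid genes and proteases were mixed, and few chaperones passed the 2-fold limit. Of 23 genes of fatty acid synthesis, elongation and desaturation 3 rose and 2 fell, with 5 increases without egl-44 replicate 2. elo-8, an elongase gene, had 0.0819, 0.107 and 1.0 FPKM in egl-44, against 29, 29.1 and 24.0 FPKM in WT (log2 fold change -5.10). Of 50 acyl-CoA and lipid-binding genes 11 rose and 10 fell, or 22% and 20%, against 16.6% and 23.1% of all genes tested. Without WT replicate 3, 7 of them rose. The dehydrogenase gene acdh-8 had 0.250, 0.109 and 3.30 FPKM in egl-44, against 64.7, 60.1 and 62.5 FPKM in WT (log2 fold change -5.71, SE 0.666, adjusted p = 0.000871). Both of these genes were higher in egl-44 replicate 3 than in the other egl-44 libraries. Of 18 aspartyl and cathepsin B proteases 5 rose and 2 fell, and leaving out any 1 library left 1 decrease, or 0 without egl-44 replicate 2. cpr-4, a cathepsin B gene, rose, with 1187, 710 and 921 FPKM in egl-44, against 254, 321 and 146 FPKM in WT (log2 fold change 2.01, adjusted p = 0.00282). Of 24 heat shock and unfolded protein chaperones 1 rose and none fell, though 2 rose without any 1 library other than egl-44 replicate 3 and 1 fell without egl-44 replicate 1. Their median was 0.25, and ranged between -0.13 without egl-44 replicate 1 and 0.73 without egl-44 replicate 2. Below the limit, hsp-3 and crt-1 had log2 fold changes of 0.93 and 0.78, and hsp-90 and hsp-1 of -0.65 and -0.45.

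Defence genes did not move as a block. Of 141 tested C-type lectins 27 rose and 34 fell, or 19.1% and 24.1%, with a median of 0.24, and these shares lie close to those of all genes. With quantile normalization 42 lectin genes rose and 28 fell. clec-87, whose protein is a chondroitin proteoglycan, fell most, with 4.83, 5.86 and 6.94 FPKM in egl-44, against 182, 229 and 406 FPKM in WT (log2 fold change -5.35, SE 0.311, adjusted p = 0.000157). The most abundant lectin gene, clec-63, had 1861, 1868 and 1652 FPKM in egl-44, against 1172, 969 and 640 FPKM in WT, and missed the 2-fold limit at 0.99. Of 13 lysozymes 2 rose, or 15.4%, and none fell. Of 44 dod, irg and saposin-like effector genes 10 rose and 2 fell, or 22.7% and 4.55%. Over all genes tested 16.6% rose and 23.1% fell. spp-14, of the saposin-like class, had 3036, 3585 and 2333 FPKM in egl-44, against 1212, 1544 and 1133 FPKM in WT (log2 fold change 1.19, adjusted p = 0.00315). Of 41 caenacin, fungus-induced and defensin-like genes 6 rose and 10 fell, or 14.6% and 24.4%, near the shares of all genes. Without WT replicate 2, 6 of them fell. In the p38 MAP kinase pathway 2 of 11 genes rose, or 18.2%, near the share of all genes. Without egl-44 replicate 3, 4 rose. pmk-1, the immune p38 kinase, had 21.6, 20.3 and 20.8 FPKM in egl-44, against 8.23, 10.3 and 8.77 FPKM in WT (log2 fold change 1.16, SE 0.177, adjusted p = 0.00236). pmk-2, in the same operon, rose by 1.26 on the log2 scale. Of 21 pals genes, known for the intracellular pathogen response, 12 rose and none fell, with a median of 1.18. pals-39 had 15, 6.75 and 11.9 FPKM in egl-44, against 1.19, 0.876 and 1.07 FPKM in WT (log2 fold change 2.86).

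Substrate-adaptor families split. Of 111 F-box A genes 22 rose and 25 fell, shares of 19.8% and 22.5% that lie near those of all genes, and 40 rose and 21 fell with quantile normalization. fbxa-72 had 60.1, 49.6 and 50.8 FPKM in egl-44, against 17, 20.0 and 10.11 FPKM in WT (log2 fold change 1.79, adjusted p = 0.00217). fbxa-215 had 3.49, 1.66 and 5.63 FPKM in egl-44, against 41.4, 53.8 and 89.3 FPKM in WT (log2 fold change -3.97). Of 20 F-box B and C genes that passed the filter, of 152 found, 3 rose and 9 fell. Of 51 MATH and BATH genes 5 rose and 17 fell, with a median of -0.43, while 11 fell without egl-44 replicate 1 and 3 rose without WT replicate 2. With quantile normalization 12 of them rose and 14 fell, with a median of 0.00. The 29 bath genes had a median of -1.03, with 2 increases and 15 decreases, and the 22 math genes a median of 0.58, with 3 increases and 2 decreases. bath-42 had 23.5, 24.4 and 29.8 FPKM in egl-44, against 65.4, 69.6 and 89.4 FPKM in WT (log2 fold change -1.51). Of 56 transthyretin-related genes 5 rose and 11 fell. ttr-14 had 0.120, 0.366 and 18.5 FPKM in egl-44, against 251, 234.9 and 101.1 FPKM in WT (log2 fold change -6.39). Of 36 tested nspa to nspe peptide genes, leaving out the nspd genes counted with the sperm genes above, 4 rose and 9 fell. All 9 tested nspd genes fell, with a median of -7.08. The median of the 36 other genes did not keep its sign. It was 0.05, became -0.07 under median-of-ratios scaling, and ranged between -0.38 without WT replicate 3 and 0.25 without WT replicate 2, with negative values also without each egl-44 replicate.

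The gene sets that the study tied to TEAD sites were measured here without infection. The study chose them on the same WT OP50 libraries that serve as the reference here, so their counts are not independent evidence of a direction. Of 127 tested genes with a TEAD site, of 138 listed, 22 rose and 17 fell, or 17.3% and 13.4%. Over all genes tested 16.6% rose and 23.1% fell, so the share that rose was near that of all genes. The median of the TEAD-site genes was 0.53, and with quantile normalization 35 of them rose and 16 fell. Of the 18 such genes that it followed by qRT-PCR, 17 passed the filter, 3 rose and none fell, with 5 increases without egl-44 replicate 2 and 7 with quantile normalization. clec-67 had 47.9, 48.2 and 53.6 FPKM in egl-44, against 15.9, 15.1 and 14.1 FPKM in WT (log2 fold change 1.70, SE 0.146, adjusted p = 0.000331). clec-85 had 68.1, 49.9 and 72 FPKM in egl-44, against 32.4, 35.5 and 20.1 FPKM in WT (log2 fold change 1.12), and lost its call without WT replicate 3. M04C3.2 had 7.63, 6.12 and 6.21 FPKM in egl-44, against 2.71, 2.40 and 1.90 FPKM in WT (log2 fold change 1.34). Every egl-44 value of these 3 called genes was above every WT value. By qRT-PCR, the study reports no effect of the egl-44 mutation on the genes it followed when worms were uninfected. The increases of clec-67, clec-85 and M04C3.2 seen here differ from that result. The other 14 genes of the 17 tested were not called. The cause of the difference was not tested. The lectin gene clec-83 was not called, with 53.6, 61.5 and 67.1 FPKM in egl-44, against 81.1, 76.0 and 66.4 FPKM in WT. C49C8.5 missed the fold limit at 0.97. Of 5 comparison genes without such a site 4 passed the filter and 2 rose: irg-5, with 24.6, 69.2 and 63.4 FPKM in egl-44, against 4.76, 5.89 and 12.3 FPKM in WT (log2 fold change 2.67), and the low gene Y51B9A.8, whose call was lost without any of egl-44 replicates 1 and 3 and WT replicates 1 and 2.

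Among other regulators, nuclear hormone receptor genes rose in 49 of 188 and fell in 1, with a median of 0.79. Quantile normalization gave 100 increases, and median-of-ratios scaling gave 34. nhr-97 had 106, 119 and 105 FPKM in egl-44, against 47.4, 50.9 and 38.6 FPKM in WT (log2 fold change 1.27, SE 0.152, adjusted p = 0.000983). Of 44 ceh homeobox genes 14 rose and 7 fell, with 4 decreases without egl-44 replicate 1 or WT replicate 2. ceh-20, a PBC-class homeobox gene, averaged 38.2 ± 9.87 FPKM in egl-44, against 10.9 ± 0.381 FPKM in WT (SD, n = 3 each), a log2 fold change of 1.73. Of 17 apical junction and cadherin complex genes, which seal epithelia, 5 rose and 1 fell. zoo-1, a zonula occludens homolog, had 22.8, 28.7 and 14.3 FPKM in egl-44, against 6.38, 6.97 and 3.77 FPKM in WT (log2 fold change 1.84). Of 13 PP2A and related phosphatase genes 3 fell, or 23.1%, the same share as of all genes tested, and none rose. The PP2A catalytic subunit gene let-92 and the structural subunit gene paa-1 were not called, with log2 fold changes of -0.11 and -0.14. rsa-1, a centrosomal PP2A subunit, had 6.70, 4.73 and 10.2 FPKM in egl-44, against 24.8, 26.1 and 38.4 FPKM in WT (log2 fold change -2.01, adjusted p = 0.00267).

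The calls were unevenly spread over the chromosomes. On X, 28.4% of 2166 tested genes rose and 6.93% fell, with a median log2 fold change of 0.74. On V, 20.9% rose and 18.6% fell, with a median of 0.38. On chromosomes I to IV, between 11% and 14.7% rose and between 24.8% and 31.3% fell, with medians between -0.35 and -0.10. The sign of the median was the same under both other scalings on I, V and X, and it turned with quantile normalization on II and IV, to 0.11 and 0.06, and was 0.00 on III. Germline-expressed genes are known to be scarce on the worm X chromosome, and the part of the germline groups in this pattern was not tested. None of 12 tested mitochondrial genome genes was called, with or without adjustment.

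**Figure D5:**
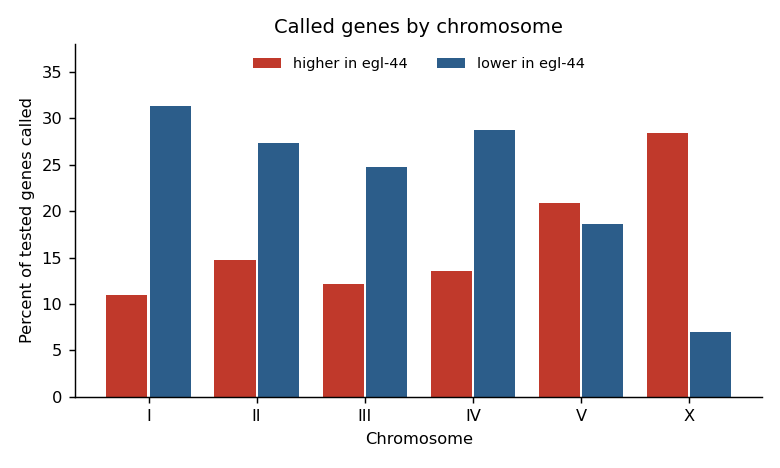
Percent of tested genes on each nuclear chromosome called higher (red, left bar) or lower (blue, right bar) in egl-44 than in WT on OP50. X has 28.4% higher and 6.93% lower, the reverse of the order on I to IV.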

How the data were processed

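RNA of whole worms was extracted with Trizol and made into libraries with the NEBNext Ultra RNA kit for Illumina. The authors deposited FPKM per gene, in a separate file for each library and not scaled further between libraries; the submitters' processing notes name Bowtie2 2.2.3, TopHat2 2.0.12, HTSeq 0.6.1, DESeq 1.18.0 and build WBcel235. FPKM are relative, so a large loss in some genes raises the values of others. How reads of near-identical or overlapping genes were counted, and whether strand was used, is not stated. The values of each library were whole multiples of the value of 1 read, within 0.001 reads, for 100% of genes, and the reads so recovered gave the depths and an alternative test.

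Genes that averaged 0.5 FPKM or more were tested on log2(FPKM + 0.5) with limma 3.58.1 in R 4.3.3, using a mean-variance trend and no block. Calls needed a Benjamini-Hochberg adjusted p below 0.05 together with a change of over 2-fold. The study states these limits without saying whether its p is adjusted. The code was tested on simulated data. Coordinates come from Ensembl release 115, which held 20194 of the 20541 genes.

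The members and the 63 gene lists were chosen with earlier results of these data known. Named genes were the Hippo genes, the 10 largest changes in each direction without overlap, up to 4 of the highest genes and 3 of the most changed called genes of each list, and the genes the study followed by qRT-PCR, and not all of them are named. Alternatives were other pseudocounts, filters, scalings, variance models and fold limits, a fit of all 9 libraries, a replicate block, limma voom on recovered reads, and leaving out each library.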

Additional observations from a re-analysis of the deposited data

How the results depend on the processing

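The counts of calls or the median of all genes moved under 4 settings. With a mean of at least 5 FPKM, which left 10793 genes, 1531 genes rose (1627 with p unadjusted) and the median of all genes was -0.06. With quantile normalization 4144 genes rose (4336 unadjusted) and the median was 0.31, and with median-of-ratios scaling the median was 0.01. With a fold change over 4, 576 rose and 2157 fell (617 and 2163 unadjusted). Leaving out each library gave 1959 to 2670 increases and 3219 to 3880 decreases, with a median of 0.08 to 0.16. Scaling also moved list counts. With median-of-ratios scaling 1 thick and thin filament gene and 1 fatty acid gene rose. With quantile normalization 21 UDP-glucuronosyltransferase, 19 pals, 11 pharyngeal, 5 p38 pathway, 5 serotonin, 10 transthyretin-related and 5 F-box B and C genes rose, 21 ceh genes rose and 4 fell, and 2 insulin-like genes fell. In the replicate block fit 2641 genes rose and 3529 fell. Deviations of same-numbered libraries correlated at 0.066 to 0.095 and those of other pairs at -0.189 to 0.206, so the numbers were not taken to pair the libraries.

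Over the tested genes named in the text and up to 17 alternatives each, 1663 values kept their direction and their side of the limits, 23 lost the call and 17 gained one. The direction turned in 2 uncalled genes. bli-2 ranged between -3.12 without egl-44 replicate 3 and 0.39 without egl-44 replicate 2, and was 0.04 without WT replicate 1. nhr-23 was 0.30 with quantile normalization and 0.04 with limma voom, and ranged between -0.07 and 0.03 with each library left out, with 0.00 without egl-44 replicate 3 and 0.01 without WT replicate 3. The cause was not tested. Depth limits low genes: 3 reads on a transcript of 1 kb are 0.168 to 0.22 FPKM in the egl-44 libraries.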

Other observations

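Gene families almost wholly outside the lists above, picked for mention after their values were seen, also rose more often than they fell. Of their members, 1 bus gene and 1 zig gene were in those lists. Of 8 tested bus genes, several of which act in surface glycosylation, 7 rose and none fell, with a median log2 fold change of 2.44. Of 9 cadherin family genes (cdh) 7 rose and 1 fell, with a median of 1.62. Of 22 claudin-like clc genes 12 rose and 3 fell, with a median of 1.07, and of 31 globin genes (glb) 12 rose and none fell, with a median of 0.91. Of 12 zig genes, for secreted immunoglobulin domain proteins of neurons, 7 rose and none fell, with a median of 1.05.

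Other families fell. Of 10 irld genes, with insulin and EGF receptor L domains, 9 fell and none rose, with a median of -3.73. Of 8 ttbk genes, named for tau tubulin kinases, 7 fell, with a median of -4.40. Of 8 wht genes, for ABC transporters, 6 fell and 1 rose, with a median of -2.85. Of 25 nuclear pore genes (npp) 11 fell and none rose, with a median of -0.99, and of 21 neprilysin-like nep genes 11 fell and 4 rose, with a median of -1.85. These medians kept their sign under median-of-ratios scaling and quantile normalization.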
